A study of Bos taurus with 30 samples.

Results

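GAL and NPFF encode the precursors of 2 neuropeptides, galanin and neuropeptide FF, and were measured in lymphocytes of cattle (Bos taurus). They were found as the features of the array that the platform annotation assigns to either gene: 2 features for GAL and 2 for NPFF, out of 44407 features. These are 2 of the 3269 genes named on the array and 2 of the 2402 tested. Each array was hybridised with the RNA of 1 animal labelled with Cyanine 3. The prednisolone group held 8 animals that were given this synthetic glucocorticoid by mouth, 30 mg per animal each day over 35 days, and the control group held 7 animals. Every animal was sampled at T1 and again at T2, so 30 arrays fell into 4 groups. The labels do not place T1 and T2 relative to the dosing, and give neither the age nor the breed of the animals. They name the cells only as lymphocytes, with collection at the slaughterhouse.

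Both genes were selected on values measured earlier on these arrays. GAL was chosen by its difference between prednisolone and control animals at T1, and NPFF by the same difference averaged over both samplings. Those differences, and every other measure that shares their contrast, are given below as descriptions with no p-value. Other comparisons were tested: for GAL the treatment difference at T2, and for NPFF the change from T1 to T2 and its interaction with treatment. The T2 arrays had no part in the choice of GAL, but they are of the same animals, so that test is not fully independent of it. The choice of NPFF used all 30 arrays, so its tests are of another contrast on the same values.

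Neuropeptides are made as longer precursor proteins, which proteases cut at paired basic residues and other enzymes trim and often amidate before the peptide is released. Galanin acts through the G protein-coupled receptors GALR1, GALR2 and GALR3 and is best known from neurons, the gut and endocrine tissue, where it restrains the release of other transmitters and hormones. Neuropeptide FF belongs to the RFamide peptides, named for the arginine and amidated phenylalanine at their end, acts through NPFFR1 and NPFFR2 and modulates the action of opioids. Immune cells carry receptors for many neuropeptides, and some make the peptides themselves. An array reports the signal of probes assigned to the precursor's transcript and says nothing of the peptide. Whether these probes bind that transcript alone was not tested.

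Each of the 4 features had a value on every array, so no value of either gene was missing. Values are intensities, the brightness of a spot after the scanner software's corrections. Each array was scaled to a common 75th percentile and the 2 spots of a gene were averaged on the log2 scale. Brightness depends on the probe as well as on the transcript, so the level of GAL is not compared with that of NPFF.

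The 2 spots of GAL gave nearly the same picture. The second was brighter on 26 of 30 arrays, by 0.06 ± 0.08 log2 units (SD over 30 arrays), and the 2 correlated at r = 0.98 over the arrays. NPFF was dimmer, with deposited spot intensities of 82.3 to 228, and its spots agreed less closely. The second was brighter on 29 of 30 arrays, by 0.16 ± 0.14 log2 units (SD), at r = 0.95. Among the 4790 features of the array with a median intensity within the range of NPFF, 6.05% of the cells were null.

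**Figure D1:**
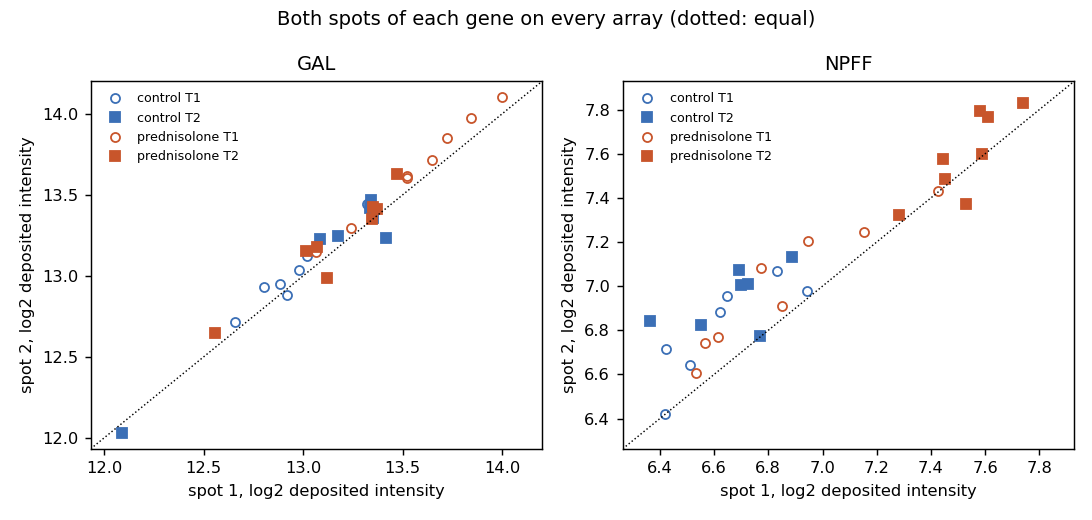
Log2 deposited intensity of spot 2 against spot 1 for GAL (left) and NPFF (right), 1 point per array, coloured by treatment, open circles for T1 and filled squares for T2. Most points lie slightly above the dotted line of equal brightness, on 26 of 30 arrays for GAL and 29 of 30 for NPFF, and the points of NPFF scatter more around it.

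NPFF stood highest in prednisolone animals at T2. In controls at T1 the scaled intensity of NPFF was 84.7 at the lowest (animal 23), 106 at the median and 124 at the highest (animal 17). In controls at T2 it was 99.0 at the lowest, 115 at the median and 129 at the highest. Controls thus covered about the same range at both samplings. In prednisolone animals at T1 the lowest was 94.0 (animal 26), the median 119 and the highest 171 (animal 29), so that 3 of 8 animals lay above the highest control and the groups overlapped. In prednisolone animals at T2 the lowest was 160.2 (animal 32), the median 191 and the highest 225 (animal 26). All 8 lay above the highest control of that sampling.

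On the log2 scale the mean of NPFF was 6.70 ± 0.21 in controls at T1 (SD, n = 7), 6.81 ± 0.13 in controls at T2 (SD, n = 7), 6.91 ± 0.29 in prednisolone animals at T1 (SD, n = 8) and 7.59 ± 0.16 in prednisolone animals at T2 (SD, n = 8). In this order the first 3 groups differed from their neighbours by 0.10 and 0.10 log2 units, less than their pooled SDs of 0.17 and 0.23. The step to the fourth group was 0.68, against a pooled SD of 0.23, and the ranges of these last 2 groups overlapped through animal 29 alone at T1.

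**Figure D2:**
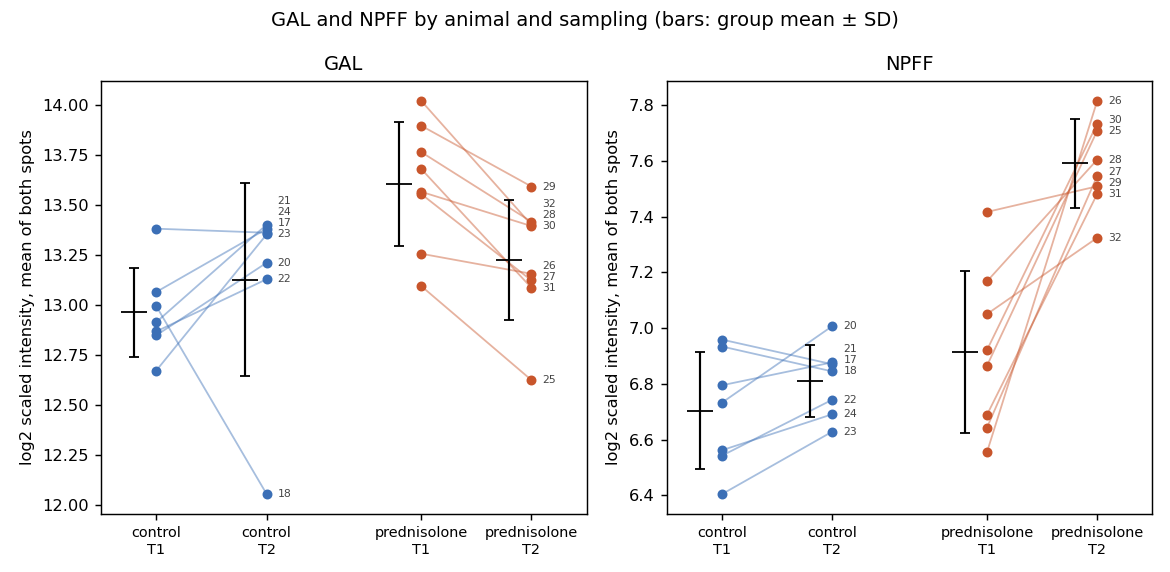
Log2 scaled intensity of GAL (left) and NPFF (right) in every animal, with lines that join the T1 and T2 arrays of an animal, numbers that name the animal, and black bars for the group mean ± SD. All 8 prednisolone animals lie above all 7 controls at T2 for NPFF, and animal 18 lies at 12.05 for GAL at T2, below the other 6 controls at 13.13 to 13.40.

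As a description of the values that chose it, NPFF was 0.50 log2 units higher in prednisolone animals than in controls on the mean of both samplings (SE 0.079), a 1.41-fold difference. At T1 the difference was 0.21 (SE 0.132) and 5 of 8 prednisolone animals lay above the control mean. It was 0.14 without animal 29 and 0.12 with array weights. At T2 it was 0.78 (SE 0.081), a 1.72-fold difference. Of the 2402 tested genes, 2.21% had all prednisolone animals above all controls at T2. NPFF is one of them, and since T2 enters the mean that chose it, nothing is read from that. The separate spots of NPFF gave 0.89 (SE 0.084) and 0.67 (SE 0.095) at T2.

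The change of NPFF over time differed between the treatments, in contrasts other than the one that chose it but on the same arrays. In prednisolone animals NPFF rose from T1 to T2 by 0.68 on the log2 scale (SE 0.116, limma adjusted p = 0.0003), a 1.60-fold rise, and it was higher at T2 in 8 of 8 animals. The smallest change was 0.09, in animal 29, which had the highest T1 value. The median change was 0.80, and the largest was 1.26, in animal 26, which had the lowest T1 value. The SD among prednisolone animals was 0.29 at T1 and 0.16 at T2. With unequal SDs an animal's change is not independent of its mean. The p-values of NPFF for its change and interaction are therefore not fully free of the choice. Of all tested genes, 16.7% were higher at T2 in every prednisolone animal and 21.9% were called higher in this comparison, so a rise there was common. An exact permutation test that flipped the sign of each animal's change gave p = 0.0078 (0.0156 adjusted over the 4 exact tests made on the 2 genes), and no smaller value can be reached with 8 animals.

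In the 7 controls the change of NPFF was 0.10 (SE 0.100, limma adjusted p = 0.77, with a 95% confidence interval of -0.11 to 0.32). Controls 17 and 18 were lower at T2, by -0.09 each, and the other 5 were higher, by up to 0.27 (animal 20). The exact sign-flip permutation test gave p = 0.125, or 0.17 adjusted over the 4 tests. In this comparison limma called 0 of the 2402 genes (0%), while 243 (10.1%) had an unadjusted p below 0.05 and 40 were called once the animal entered as a block.

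The interaction, the rise in prednisolone animals beyond that in controls, was 0.57 for NPFF (SE 0.154, limma adjusted p = 0.0118). It was called for 18.2% of tested genes, 9.37% with the sign of NPFF and 8.78% with the opposite sign. An exact permutation of the treatment label over the animals' changes gave p = 0.0039, or 0.0155 adjusted over the 4 tests. Leaving out 1 animal at a time moved the interaction between 0.49, without animal 26, and 0.66, without animal 29, and the adjusted p stayed between 0.0027 and 0.0313.

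**Figure D3:**
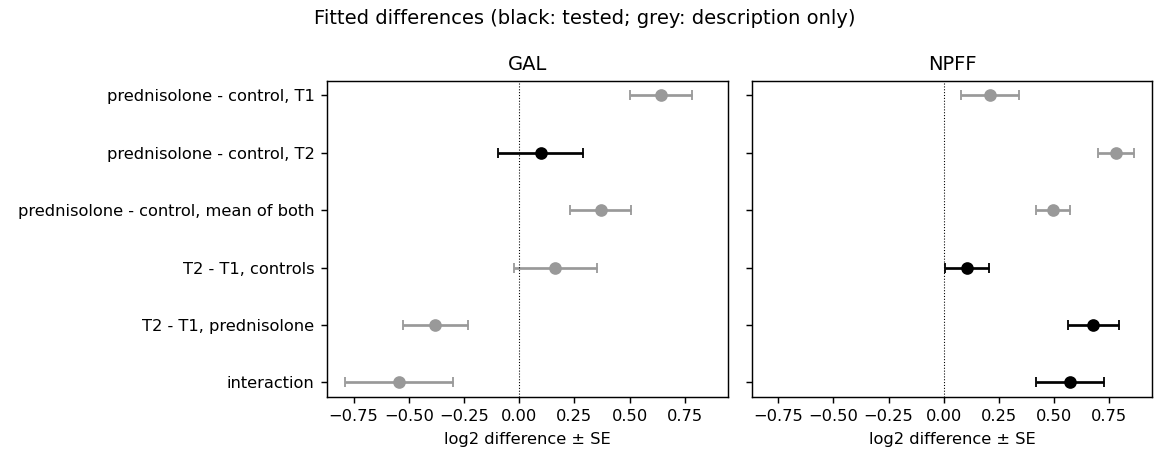
Fitted log2 differences ± SE of GAL (left) and NPFF (right) in the 6 comparisons, black where tested and grey where given only as a description. NPFF stands at 0.78 at T2 and at 0.68 for T2 minus T1 in prednisolone animals, while GAL stands at 0.64 at T1 and 0.10 at T2.

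GAL had another pattern, with its highest values in prednisolone animals at T1. In controls at T1 the scaled intensity of GAL was 6519 at the lowest (animal 23), 7711 at the median and 10658 at the highest (animal 17). In prednisolone animals at T1 it was 8740 at the lowest (animal 25), 12615 at the median and 16605 at the highest (animal 28). Of the 8 prednisolone animals, 6 lay above the highest control, and the ranges overlapped through animals 25 and 26 and control 17. In controls at T2 the lowest was 4250 (animal 18), the median 10450.1 and the highest 10809. In prednisolone animals at T2 the lowest was 6308 (animal 25), the median 9936 and the highest 12334 (animal 29), and the groups overlapped widely.

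The log2 means of GAL were 12.96 ± 0.22 in controls at T1 (SD, n = 7), 13.13 ± 0.48 in controls at T2 (SD, n = 7), 13.22 ± 0.30 in prednisolone animals at T2 (SD, n = 8) and 13.60 ± 0.31 in prednisolone animals at T1 (SD, n = 8). In this order the first 2 steps, of 0.16 and 0.10, were smaller than the pooled SDs of 0.38 and 0.39. The last step, of 0.38, exceeded its pooled SD of 0.30, with overlapping ranges.

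As a description of the contrast that chose it, GAL was 0.64 log2 units higher in prednisolone animals at T1 (SE 0.139), a 1.56-fold difference, with 8 of 8 animals above the control mean. Every prednisolone animal lay above the control mean at T1 for 9.91% of tested genes. Over both samplings the mean difference of GAL was 0.37 (SE 0.138).

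At T2, where the arrays had no part in the choice but were of the same animals, no treatment difference of GAL was detected. Prednisolone animals stood 0.10 log2 units above controls (SE 0.193, limma adjusted p = 0.79), with a 95% confidence interval of -0.31 to 0.51, which still holds differences of up to 1.42-fold. Of 8 prednisolone animals, 5 lay above the control mean. An exact permutation test over the animals gave p = 0.687. By limma, 18.6% of tested genes were called at T2. Control 18 alone set the sign: without it the difference was -0.082 (adjusted p = 0.73), and the SE fell from 0.193 to 0.126.

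GAL was lower at T2 than at T1 in all 8 prednisolone animals, by -0.10 (animal 26) to -0.62 (animal 28), with a mean of -0.38. In controls it was higher at T2 in 5 of 7, by up to 0.68 (animal 23). It stood at -0.02 in animal 17 and at -0.94 in animal 18, which gave a mean of 0.16. That mean was 0.35 without animal 18, 0.078 without animal 23 and 0.27 with array weights. The difference between these changes was -0.54 (SE 0.243), or -0.73 without animal 18. All of these share the T1 arrays that chose GAL, so they are descriptions only. For 11% of tested genes every prednisolone animal was lower at T2.

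GAL and NPFF had different highest groups. NPFF was highest in prednisolone animals at T2, and GAL in prednisolone animals at T1. The T1 difference chose GAL, and T2 enters the mean that chose NPFF, so nothing is read from this contrast. Steps among the lower groups of each gene were smaller than their pooled SDs. Over the 30 arrays the 2 genes correlated at r = 0.17, and at r = 0.24 once the mean of each group was subtracted. Animals 28, 29 and 32 had the 3 highest T1 values of both genes.

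The arrays of animals 32 and 28 at T1 had the lowest median correlation with the other arrays of their group, 0.977 and 0.978. The array of control 18 at T2 came next at 0.979, and the highest of the 30 arrays was 0.990. Without animals 28 and 32 the T1 difference of GAL was 0.55 and that of NPFF 0.14. The rise of NPFF in prednisolone animals was then 0.78 (adjusted p = 0.0013) and its interaction 0.68 (adjusted p = 0.0113).

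Levels of cell type markers differed between some of these groups. Marker genes were averaged per array, as log2 differences from each gene's control mean. The T cell markers CD3D, CD3E, CD3G, CD247, CD2 and CD6 had a value on all 30 arrays, but so did CD14, HBB, CXCR1 and ITGA2B of other cells, so these values do not check the lymphocyte label. The T cell list (6 of 8 markers tested) ran from -0.61 to 0.27 in controls at T1, -0.05 to 0.29 in controls at T2, -0.17 to 0.22 in prednisolone animals at T1 and 0.05 to 0.62 in prednisolone animals at T2, the group in which NPFF was highest. The monocyte list (2 of 6 tested, CD14 and ITGAM) ran from -0.66 to 0.61 in controls at T1, from -0.44 to 0.48 in controls at T2, from 0.21 to 2.18 in prednisolone animals at T1, where GAL was highest, and from -0.81 to 0.34 in prednisolone animals at T2. Its 2 genes went different ways. CD14, the lipopolysaccharide co-receptor, stood 1.44 higher in prednisolone animals at T1 (SE 0.319, limma adjusted p = 0.056), where ITGAM, an integrin subunit of myeloid cells with a value on 28 arrays, differed by -0.02 (SE 0.229, adjusted p = 0.96). From T1 to T2 in prednisolone animals CD14 fell by 2.33 (SE 0.369, adjusted p = 0.0002). ITGAM rose there by 0.46 (SE 0.159, adjusted p = 0.0344), a call lost with the brightest feature alone (adjusted p = 0.089), in 1 fit of all 30 arrays (0.062), without animals 28 and 32 (0.055) and without any one of animals 25, 26, 27, 30, 31 and 32 (from 0.0552 to 0.13). Natural killer markers (6 of 6 tested) ran from -1.29 to 1.01 in prednisolone animals at T1 and from -0.48 to 0.47 in the other 3 groups. Also tested were 1 B cell marker (CD79A), 1 neutrophil marker (CXCR1), 3 erythroid markers (HBB, ALAS2 and AHSP) and 1 platelet marker (ITGA2B). The ranges of every list, those of T cells and monocytes included, overlapped between all groups. Median CXCR1 was 0.28 in prednisolone animals at T1 and -1.05 at T2, beside -0.34 and 0.28 in controls. Markers called for treatment at T2 were CD14 (-1.11, limma adjusted p = 0.0328), CD2 (0.32, 0.0367) and NCR1 (0.70, 0.0408), beside 18.6% of all tested genes. From T1 to T2 in prednisolone animals CD2, CD3G and CD6 were called higher, as were 21.9% of all tested genes. CD2 was 0.40 higher at T2 in controls as well (SE 0.112, adjusted p = 0.30). None of the 6 T cell markers passed in the interaction, where 18.2% of all tested genes were called. The part of these cells in the results for GAL and NPFF was not tested. In mixed cells a change in the share of a cell type and a change in the RNA per cell cannot be told apart.

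Few relatives of the 2 genes could be set beside them. Of 8 genes for galanin-like and RFamide ligands 5 were on the array and 4 were tested: GAL, NPFF, PRLH and QRFP. PRLH encodes prolactin-releasing peptide and QRFP another RFamide peptide. PRLH differed between prednisolone and control animals by -0.34 (SE 0.244) at T1 and -0.29 (SE 0.187, limma adjusted p = 0.33) at T2. QRFP differed by -0.46 (SE 0.146, adjusted p = 0.10) at T1 and 0.02 (SE 0.143) at T2. Neither PRLH nor QRFP passed in any of the 6 comparisons. These called 0% to 38.1% of all tested genes, and 2 genes are too few to read from that. Of 9 receptor genes for these peptides only PRLHR was on the array under a name, with a value on 22 arrays, and it was left out as dim or incomplete. GALR1, GALR2, GALR3, NPFFR1 and NPFFR2 are not analysed here. None of the 6 genes that neighbour GAL in the RefSeq table of the ARS-UCD2.0 assembly, nor of the 6 that neighbour NPFF, among them TARBP2 and ATF7, was named on the array.

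Of 41 other neuropeptide precursors 25 were on the array and 10 were tested. At T2, 1 was called higher and 1 lower in prednisolone animals than in controls. Of all tested genes, 11% were called higher and 7.58% lower. AGRP, the agouti-related peptide that promotes feeding, was 0.57 higher (SE 0.088, adjusted p = 0.0009). That call was lost with the animal as a block (adjusted p = 0.086) and in 1 fit of all 30 arrays (adjusted p = 0.080). OXT, the oxytocin precursor, was 0.45 lower (SE 0.127, adjusted p = 0.0221). Its call was lost with the animal as a block (adjusted p = 0.075), in 1 fit of all 30 arrays (adjusted p = 0.074) and without control 17 (adjusted p = 0.0513). No precursor passed at T1, where 0.333% of all tested genes were called.

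From T1 to T2 in prednisolone animals, where 38.1% of all tested genes were called and 16.1% were called lower, 1 of the 10 precursors rose and 2 fell. AGRP rose by 0.80 (SE 0.164, adjusted p = 0.0012), close in size to NPFF at 0.68. It is a dim gene, with a value on 28 arrays and log2 group means of 4.89 to 5.77. POMC, the precursor of corticotropin and endorphin, fell by 0.45 (SE 0.107, adjusted p = 0.0035). OXT fell by 0.53 (SE 0.189, adjusted p = 0.0363), a call lost on leaving out any one of animals 26, 27, 28, 29, 31 and 32 (adjusted p from 0.0519 to 0.11). In the interaction OXT stood at -1.03 (SE 0.243, adjusted p = 0.0044), opposite in sign to NPFF. In controls OXT was 0.50 higher at T2 than at T1 (SE 0.136, adjusted p = 0.30). CRH, the corticotropin-releasing hormone gene, stood at -0.72 (SE 0.225, adjusted p = 0.0262), a call lost with the brightest feature alone (adjusted p = 0.11) and without any one of animals 18, 20, 22, 27, 28 and 32 (adjusted p from 0.0546 to 0.076). AGRP (0.49, SE 0.306, adjusted p = 0.28) and POMC (-0.35, SE 0.150, adjusted p = 0.10) did not pass there. In the interaction 2 of the 10 precursors were called lower and none higher, beside 8.78% and 9.37% of all tested genes. The median difference of the 10 precursors was 0.22 at T1 and 0.05 at T2, beside 0.03 and 0.04 over all tested genes.

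**Figure D4:**
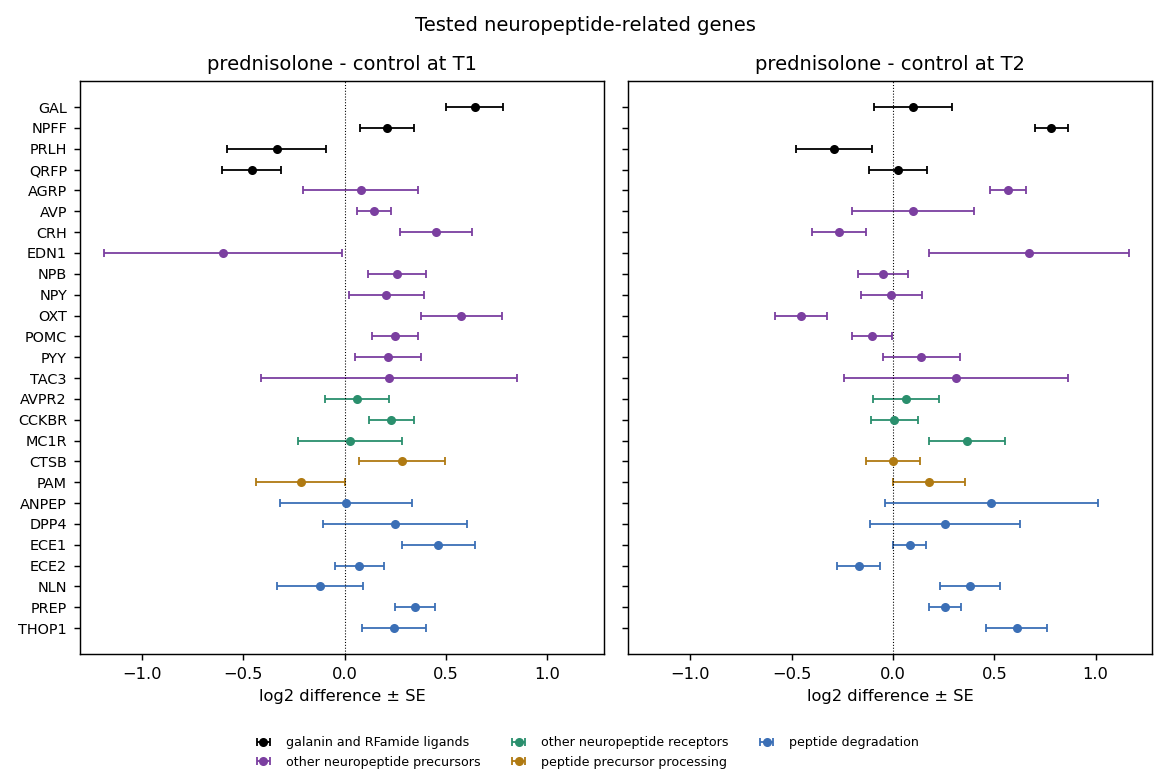
Log2 difference between prednisolone and control animals ± SE at T1 (left) and T2 (right) for the tested genes of the 5 lists of neuropeptide ligands, receptors, processing and degradation. NPFF at 0.78, THOP1 at 0.61 and AGRP at 0.57 stand to the right at T2, and so does EDN1 at 0.67 with a wide SE of 0.494, while OXT stands at -0.45. At T1 GAL stands at 0.64 and EDN1 at -0.60.

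Genes that act on neuropeptides after transcription were tested in part. Of 3 tested receptors of other neuropeptides none passed in any comparison. The comparisons called 0% to 38.1% of all tested genes, and 3 genes are too few to read from that. MC1R, a melanocortin receptor and the one of smallest p at T2, differed there by 0.37 (SE 0.188, adjusted p = 0.21). PAM, the enzyme that amidates peptides such as galanin and neuropeptide FF, differed by 0.18 (SE 0.178, adjusted p = 0.56) at T2, and CTSB, a lysosomal protease, by 0.00 (SE 0.133). PCSK1 and PCSK2, the prohormone convertases, and CPE, which trims their products, were on the array but left out as dim or incomplete. Of 7 tested peptidases 2 were called higher in prednisolone animals than in controls at T2 and none lower. Of all tested genes, 11% were called higher and 7.58% lower. The list median was 0.26, beside 0.04 over all tested genes. At T1 the list median was 0.24, beside 0.03. THOP1, thimet oligopeptidase, which cuts short peptides, was 0.61 higher (SE 0.151, adjusted p = 0.0114). PREP, prolyl endopeptidase, was 0.26 higher (SE 0.078, adjusted p = 0.0318), though not with the animal as a block (adjusted p = 0.061) or in the values as deposited (adjusted p = 0.0558). The call of PREP was also lost without any one of animals 17, 22, 24, 25, 26 and 31 (adjusted p from 0.0531 to 0.066). PREP was 0.30 higher on the mean of both samplings as well (SE 0.057, adjusted p = 0.0157), where 2.75% of all tested genes were called. From T1 to T2 in prednisolone animals THOP1 rose by 0.67 (SE 0.150, adjusted p = 0.0023) and NLN, neurolysin, a relative of THOP1, by 0.66 (SE 0.198, adjusted p = 0.0150), the latter not without animals 28 and 32 (adjusted p = 0.0559). These were 2 of 7 peptidases, beside 21.9% of all tested genes called higher. THOP1 was 0.31 higher at T2 in controls as well (SE 0.157, adjusted p = 0.54). In the interaction none of the 7 passed, with THOP1 at 0.37 (adjusted p = 0.26) and NLN at 0.50 (adjusted p = 0.19), beside 18.2% of all tested genes called.

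Galanin and neuropeptide FF receptors signal through G proteins and lower or raise cyclic AMP or calcium. Of 17 such signalling genes on the array 15 were tested. At T2 4 were called higher in prednisolone animals than in controls and none lower, against 11% and 7.58% of all tested genes. Their median was 0.17, beside 0.04 over all tested genes. CREB1, the transcription factor at the end of the cyclic AMP pathway, was 0.48 higher (SE 0.101, adjusted p = 0.0040). PRKACB, a catalytic subunit of protein kinase A, was 0.56 higher (SE 0.093, adjusted p = 0.0011). ARRB1, the arrestin that switches receptors off, was 0.54 higher (SE 0.110, adjusted p = 0.0034). GNA11, a G protein subunit that acts on phospholipase C, was 0.60 higher (SE 0.196, adjusted p = 0.0436). This call was lost with the animal as a block (adjusted p = 0.215) and in 6 other alternatives. It was also lost without any one of animals 17, 18, 22, 24, 25, 26, 27, 28, 30 and 32 (adjusted p from 0.0558 to 0.082).

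From T1 to T2 in prednisolone animals 7 of the 15 signalling genes rose and 2 fell, against 21.9% of all tested genes called higher and 16.1% called lower. Those of smallest p were the rises of GNA11 by 1.64 (SE 0.318, adjusted p = 0.0008), CREB1 by 0.85 (SE 0.080, adjusted p = 2.37e-06), ARRB1 by 0.65 (SE 0.123, adjusted p = 0.0007) and PRKACB by 0.63 (SE 0.087, adjusted p = 5.48e-05). In the interaction 5 were higher and 1 was lower, against 18.2% of all tested genes called. CREB1 stood at 0.76 (SE 0.147, adjusted p = 0.0010), ARRB1 at 0.70 (SE 0.191, adjusted p = 0.0127) and PRKACB at 0.61 (SE 0.150, adjusted p = 0.0065), close in size to NPFF at 0.57. GNAO1, the G protein subunit abundant in neurons, stood at -0.85 (SE 0.233, adjusted p = 0.0127), a call lost without animals 28 and 32 (adjusted p = 0.065).

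The genes most like NPFF over the 30 arrays, among 2181 tested genes with a value on all of them, were RBM14, an RNA-binding coactivator (Pearson r = 0.88), RPUSD3, a mitochondrial RNA-modifying enzyme (0.88), TRAF3IP3, an adaptor of lymphocytes (0.85), TXNL4B (0.84) and FOS, an immediate early transcription factor (0.83). At T2 these 5 stood 0.68 to 1.77 log2 units higher in prednisolone animals, and at T1 between -0.03 and 0.22. With each group's mean subtracted the most alike were OPN1LW (0.77), CYP17A1 (0.73) and NUBP2 (0.72). The genes most like GAL were CACNA1B, the pore of a neuronal calcium channel (0.91), HAS3, a hyaluronan synthase (0.83), CEBPA, a myeloid transcription factor (0.81), GAST, the gastrin precursor (0.81), and COX6B2, a subunit of cytochrome oxidase (0.80). At T1 these 5 stood 0.39 to 0.86 higher in prednisolone animals, and at T2 between -0.10 and 0.18. With group means subtracted CACNA1B (0.86), BAIAP2L2 (0.84) and SCAMP4 (0.83) came first for GAL. These correlations are descriptions over arrays that share animals and scaling. Group means enter the correlations over the 30 arrays, so the treatment differences of the genes picked by them follow in part from that choice. The list of genes most like GAL and the list most like NPFF had no gene in common. Each holds few of the 2181 genes, so nothing is read from that.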

How the data were processed

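The authors deposited 1 table of linear intensities of 44407 features on 30 arrays. Per the labels and the series text, Feature Extraction joined a weak and a strong scan of every slide, removed trends and subtracted background. R 2.11.1 is listed among the tools, per the submitters' processing notes. Normalization between arrays and the rule behind null cells (17.16%): not given in the sources used here. Arrays carried 34506 to 38801 values, and the number of arrays limits the precision.

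Each array was scaled to its 75th percentile over 23055 complete features (shifts of at most 0.044 log2 units), raised to a floor at percentile 1 (2.51) and logged. Of 6954 features with 1 gene, 5432 were named through RefSeq accessions, 1358 by symbol, 158 by synonym and 6 by the platform's name. Features within 0.25 log2 units of a gene's brightest were averaged. Genes in the lowest 25% or with under 4 values in a group were left out. Two-sided tests came from limma 3.58.1 (lmFit and eBayes, R 4.3.3), and p-values were adjusted by Benjamini and Hochberg's method across the 2402 genes at a threshold of 0.05: treatment at T1 and T2 on 15 arrays each, on the mean of both over 15 animals, T2 minus T1 within controls and within prednisolone animals, and the interaction over 30 arrays. Each fit was tested on simulated data. Tables used Python 3.11.15.

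An animal's arrays share its number in the titles. Their deviations from the group means correlated at 0.22 to 0.70 over 2181 genes (median 0.46), and 15 of 15 animals matched themselves best. The main fits leave the animal out, and a fit with the animal as a block (correlation 0.26) was an alternative, beside other scalings, filters, floors, spots, weights and animals left out. Genes were named by rule: GAL, NPFF, the 5 and 3 genes most like each, all measured ligands of their families, and up to 4 called members of each list and comparison, or the member of smallest p at T2. The members and lists were chosen with earlier results of these data known. No coordinates and no sequences are given.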

Additional observations from a re-analysis of the deposited data

Results flagged for a closer look

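The GAL level of control animal 18 at T2, 12.05 on the log2 scale, lay far from the other 6 controls at 13.13 to 13.40: its gap to the nearest was 0.797 of the whole range, above Dixon's 95% critical value for 7 samples. Both spots were low on that array. Of 12 groups of values examined this was 1 flagged sample, and chance flags about 1 group in 20.

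The change of NPFF from T1 to T2 differed between prednisolone and control animals by 0.57 in the test of the interaction (limma adjusted p = 0.0118), with 8 of 8 prednisolone animals and 5 of 7 controls higher at T2. NPFF was chosen on the same arrays, so this p-value is not fully free of the choice. Of all tested genes, 18.2% were called in the interaction and 16.7% were higher at T2 in every prednisolone animal.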

How the results depend on the processing

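Across 320 alternative values of the 12 differences of GAL and NPFF, 319 kept their direction and their side of the threshold, or moved by less than 1 SD where no test was made. Part of the 320 could not differ, since leaving out an animal of 1 treatment leaves the change within the other as it was. For untested differences, settings that touch only other genes or the SE also return the same value. The count of 319 therefore overstates how much was checked. The 1 exception was the treatment difference of GAL at T2, which reversed to -0.082 without replicate 18 (animal 18). Leaving out each animal in turn gave -0.082 to 0.18. With the animal as replicate block it was 0.10 (adjusted p = 0.78), and NPFF gave 0.10 in controls (0.66), 0.68 in prednisolone animals (1.22e-06) and 0.57 for the interaction (0.0030), so this block changed no call of either gene. The block applies 1 correlation of 0.26 to every gene and does not measure the pairing of NPFF itself. In prednisolone animals the changes of NPFF had an SD of 0.38, above its SDs of 0.29 at T1 and 0.16 at T2. Its p-values from the block may therefore be too small. The exact sign-flip test, which uses each animal's own change, gave p = 0.0078 there. Each NPFF spot alone, in a fit over 33983 features chosen after seeing the data, gave interactions of 0.66 (adjusted p = 0.0062) and 0.48 (0.0440). Counts of called genes moved more. At T1 the 8 genes became 2 with no filter, 5 with the brightest feature, 69 with array weights, 232 with the animal as replicate block, 246 in 1 fit of all 30 arrays and 0 without animals 28 and 32. The 66 of the mean became 39 with no filter, 39 with the brightest feature and 35 without those animals. In controls over time 0 became 2 with array weights, 40 with the replicate block and 6 in 1 fit, and the 436 of the interaction became 224 without animals 28 and 32. The causes were not tested. Of 759 alternative fits of 31 calls of other list genes, 686 kept the call, 73 lost it and 0 reversed. Among these too, leaving out a control could not alter a change within prednisolone animals. NPFF is dim and its spots differ by more than those of GAL, which limits the precision of its folds.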
